A study of Mus musculus with 11 samples.

Results

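The genes described here encode 45 enzymes and partner proteins that write, remove or act on DNA methylation and histone marks, or that remodel nucleosomes. Their members are all peaks of open chromatin in an ATAC-seq table whose assigned gene is 1 of these 45. The table holds 164 such peaks among 45508, assigned to 42 of the 45 genes. Hdac3, Hdac5 and Kdm5a have no peak under their own name. Of the 164 peaks, 50 lie within 1 kb of an annotated start site by the deposited distance and are called promoter peaks below. These 50 belong to 40 genes, and the other 114 peaks lie farther away. Kdm6b and Hdac9 have peaks only beyond 1 kb. By the deposited annotation, 96 of the 164 peaks are intronic, 28 are at a start site, 25 are intergenic, 6 are exonic, 6 are in a 5′ UTR, 2 are at a transcript end and 1 is in a non-coding transcript. All positions are on the mouse build mm10.

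DNA methyltransferases copy or place methyl groups on cytosine in CpG, and TET enzymes start their removal by oxidation. Polycomb complexes mark histone H3 at lysine K27 and histone H2A, KMT2 enzymes methylate H3 at K4, and H3K9 methyltransferases mark silent chromatin. Acetyltransferases open chromatin and deacetylases counter them. In T cells, DNA methylation and Polycomb marks help keep effector genes silent until activation, and class IIa deacetylases are moved out of the nucleus by receptor signalling.

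ATAC-seq reads out accessible DNA through cuts made by the transposase Tn5. It was done on 11 libraries of 10000 naive CD4 T cells each, taken from spleen and lymph nodes of 3 untreated mice. Every mouse carried the transgene Tg(Nr4a1-EGFP)GY139Gsat, in which Nr4a1 (Nur77) sequences drive a green protein that reports T cell receptor signalling, and the allele Foxp3tm1Flv with a red Foxp3 reporter, on C57/BL6. Ages are not given in the sources used here. All cells were CD4+, negative for the Foxp3 reporter and CD44lo. Population A was reporter low and Ly6C+ (n = 2, mice 1 and 3). Population B was reporter intermediate and Ly6C+, population C reporter intermediate and Ly6C-, and population D reporter high and Ly6C- (n = 3 each, mice 1, 2 and 3). D against A therefore combines the reporter and the Ly6C difference, and these cannot be told apart in it. The populations are bulk sorts, so a change in each cell and a change in the share of cells with an open site cannot be told apart.

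Values are RPM (rppm, as the deposited header names them). The scaling totals ran from 2597176 reads in D of mouse 1 to 36859230 in D of mouse 3, and 92.5% to 94.7% of them fell in the listed peaks. Mouse 3 gave the deepest library of each population. The sorted markers were checked first: D exceeded A at 3 of 8 Nr4a1 peaks with none lower, and 3 of 7 Ly6c1 peaks were lower and none higher, while none of 5 Ly6c2 peaks passed the test. Of 15 Cd44 peaks, 4 were higher and 1 lower. The single Foxp3 peak did not pass, 1 of 3 Cd4 peaks was lower and the single Cd8a peak was higher.

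The sequences of 5 promoters show the range of these genes. They are the 250 bases before an annotated start in RefSeq (assembly GRCm38.p6), written 5′ to 3′ on the gene's strand, with each CpG in capitals. When each of the 40 genes is taken by its strongest promoter peak, Hdac4 has the most and Tet1 the least accessible one per kb. Suz12 and Ezh2 are subunits of Polycomb complex 2, and Hdac9 has 2 listed starts with no peak over either.
Hdac4, chr1:92180342-92180591, minus strand: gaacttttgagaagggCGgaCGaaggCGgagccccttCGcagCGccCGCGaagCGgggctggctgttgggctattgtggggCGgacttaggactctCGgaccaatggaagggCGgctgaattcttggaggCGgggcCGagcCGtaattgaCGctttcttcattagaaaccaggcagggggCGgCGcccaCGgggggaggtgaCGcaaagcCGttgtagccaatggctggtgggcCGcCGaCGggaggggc
Tet1, chr10:62887325-62887574, minus strand: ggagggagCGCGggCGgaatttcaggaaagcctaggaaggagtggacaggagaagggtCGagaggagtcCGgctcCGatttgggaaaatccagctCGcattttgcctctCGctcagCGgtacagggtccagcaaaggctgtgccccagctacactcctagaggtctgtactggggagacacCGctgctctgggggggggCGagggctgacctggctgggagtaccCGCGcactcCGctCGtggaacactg
Suz12, chr11:79992856-79993105, plus strand: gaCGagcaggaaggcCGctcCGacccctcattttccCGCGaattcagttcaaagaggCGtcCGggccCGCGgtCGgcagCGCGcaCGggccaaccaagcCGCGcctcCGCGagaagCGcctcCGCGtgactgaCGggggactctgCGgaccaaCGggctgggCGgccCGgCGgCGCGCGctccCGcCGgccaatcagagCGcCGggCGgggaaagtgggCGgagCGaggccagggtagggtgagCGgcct
Ezh2, chr6:47595031-47595280, minus strand: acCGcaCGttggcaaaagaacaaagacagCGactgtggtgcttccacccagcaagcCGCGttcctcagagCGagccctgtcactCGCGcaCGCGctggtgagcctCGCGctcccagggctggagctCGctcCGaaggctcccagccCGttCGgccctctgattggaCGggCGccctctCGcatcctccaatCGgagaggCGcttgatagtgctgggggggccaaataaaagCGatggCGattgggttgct
Hdac9 first start, chr12:34917096-34917345, minus strand: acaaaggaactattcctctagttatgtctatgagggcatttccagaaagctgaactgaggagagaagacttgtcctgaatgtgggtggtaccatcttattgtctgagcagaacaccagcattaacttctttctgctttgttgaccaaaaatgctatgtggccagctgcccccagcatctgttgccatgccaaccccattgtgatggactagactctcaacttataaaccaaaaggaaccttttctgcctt
Hdac9 second start, chr12:34528890-34529139, minus strand: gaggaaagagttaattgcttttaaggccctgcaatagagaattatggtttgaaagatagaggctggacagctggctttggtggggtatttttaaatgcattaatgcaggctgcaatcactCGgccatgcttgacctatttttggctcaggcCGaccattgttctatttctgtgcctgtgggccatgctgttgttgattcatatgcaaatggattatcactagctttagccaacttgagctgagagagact
The stretches hold 23 CpG for Hdac4, 15 for Tet1, 37 for Suz12 and 23 for Ezh2, but 0 and 2 for Hdac9. The Hdac9 stretches have 44.4% and 43.6% G and C, against 73.6% in Suz12.

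The same contrast holds over the 57 RefSeq promoter windows (250 bases before to 50 after a start) that 40 of the members have. Of these, 51 overlap a listed peak and hold 11 to 57 CpG, with a median of 30. The 6 windows under no listed peak hold 0 to 6 CpG, and they are starts of Dnmt1, Hdac7, Hdac9 and Kat2b. Among all 32851 windows in the reference, 76.6% of those with 10 or more CpG and 10.8% of those with fewer overlap a listed peak. The members thus have mostly CpG-rich starts: 89.5% of their windows overlap a peak, against 39.4% of all windows. Motifs were counted in these windows on both strands, as a description only. The AP-1 letters TGAGTCA stood in 5.26% of member windows and 5.20% of all, and the NFAT letters TGGAAA in 15.8% and 21.4%. The Runx letters TGTGGTT stood in 1.75% and 5.27%, the Ets letters CCGGAAG in 3.51% and 8.86%, and the TCF-1 letters CTTTGAT in 1.75% and 3.73%. The Nr4a letters AAAGGTCA was in 1.75% and 1.51%, and the Egr letters GCGTGGGCG in 1.75% and 0.612%. The NF-kB motif was in 0 of 57 windows and 0.088% of all, and it can share letters with TGGAAA.

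The promoters of these genes were open in all 4 populations, and none of the 50 promoter peaks passed the test between any 2 populations compared. The test was limma on log2(rppm + 1) over all 45508 peaks with Benjamini-Hochberg adjustment, and "called" below means an adjusted p under 0.05. A log2 change on this scale understates the ratio at weak peaks. Between D and A, the lowest adjusted p of a member promoter by limma was 0.094, with 2 of 50 at an unadjusted p under 0.05, and edgeR and DESeq2 on recovered reads called 0. Over all 12206 promoter peaks of the table limma called 2.74% higher and 0.901% lower between D and A, and 0.918% and 0.172% between D and C. Member promoter peaks had a median of 31.2 rppm per kb, close to 31.1 over all promoter peaks, and member peaks beyond 1 kb a median of 12.1 rppm per kb.

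The next values compare each gene's promoter peak of highest mean. Per kb, the most accessible was that of Hdac4 with 119 rppm per kb, followed by Arid1a, a SWI/SNF remodeller subunit, with 87.4, and Kdm4a, a demethylase of H3K9 and H3K36, with 84.3. The Arid1a peak compared here has a mean of 53.5 rppm. A stronger Arid1a peak, of 85.4 rppm, overlaps the window of another RefSeq start. By the deposited distance it is not a promoter peak, so it is left out of this comparison. Dot1l, the H3K79 methyltransferase, had 67.4, the acetyltransferase gene Crebbp 62.2 and the Polycomb subunit gene Eed 60.8 rppm per kb. At the other end of these 40 peaks stood Tet1 with 13.1, Kat2a (the acetyltransferase GCN5) with 15 and Ehmt2 (the H3K9 methyltransferase G9a) with 17.7 rppm per kb, while second promoter peaks of Hdac1 and Ehmt2 were lower still (9.76 and 11.3). The 2 maintenance genes of DNA methylation lay between, Dnmt1 with 49.8 and Uhrf1 with 28.5, and the de novo enzymes Dnmt3a and Dnmt3b had 21.6 and 20.4 rppm per kb. The steadiest promoters over the 11 libraries were those of Rnf2 (a ubiquitin ligase of Polycomb complex 1), Uhrf1 and Suv39h2, with coefficients of variation of 3.88%, 4.42% and 4.75%. The most variable were Ehmt2, Kmt2c and Kat2a with 27.2%, 26.5% and 24.5%. The Kmt2c value is that of a weak peak with a mean of 9.37 rppm. A stronger peak of 68.1 rppm, assigned to 4831440E17Rik, overlaps the RefSeq promoter window of Kmt2c and is outside this comparison.

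Much of the spread at these promoters lay in 2 libraries of mouse 1. The shallowest library, D of mouse 1, stood at a median of 79.8% of each promoter peak's mean, and C of mouse 1 at 87%. One or the other was the lowest of the 11 at 40 of the 50 promoter peaks. Over all 12206 promoter peaks of the table these libraries stood at 92.7% and 95.8%, a smaller departure. The median log2 change of the 50 promoters between D and A was -0.11 with all libraries and 0.01 without D of mouse 1, beside -0.07 and -0.03 over all promoter peaks. The plot of promoter peaks by library shows both libraries below the rest.

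**Figure D1:**
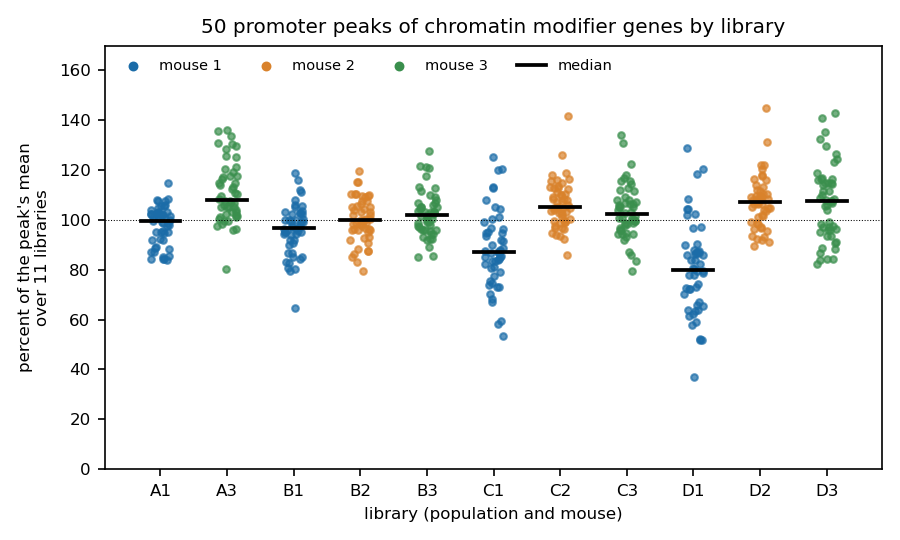
Each point is 1 of the 50 promoter peaks in 1 library, as a percent of that peak's mean over the 11 libraries (y axis), with libraries named by population and mouse (x axis) and black bars at the median. The medians of D1 (79.8%) and C1 (87%) lie below those of the other libraries, which run from 96.7% to 108%.

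Tet1, the first-described TET enzyme, had 21.3 and 23.3 rppm at its promoter in A. It had 19.6, 20.4 and 18.4 in B, 15.5, 21.9 and 19.5 in C, and 9.63, 18.8 and 16.1 in D, in the order of mice 1, 2 and 3. All D libraries lay below both A libraries, with D of mouse 1 far below its group. The log2 change was -0.60 (SE 0.22), limma adjusted p = 0.094, and with the mouse as a block it was -0.71 (limma adjusted p = 0.00304). Without D of mouse 1 it was -0.34 (limma adjusted p = 0.179). Suz12 was the other promoter called only with the block, which called 2 member promoters lower and 8.04% of all promoter peaks. It had 69.1 and 75.7 rppm in A and 50.1, 68.5 and 60.1 in D, a change on the log2 scale of -0.29 (limma adjusted p = 0.196) and -0.33 with the block (limma adjusted p = 0.0266). The Hdac4 promoter stood at 126 and 128 rppm in A and at 160, 111 and 102 in D, so D spread on both sides of A.

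Between populations D and A, 15 of the 164 peaks were called, all beyond 1 kb: 12 were higher in D and 3 lower. That is 7.32% higher and 1.83% lower, where over all 45508 peaks limma called 8.7% higher and 3.74% lower. Among peaks beyond 1 kb, 10.5% of the members were higher, against 10.9% of all such peaks. The members' shares were thus close to or below those of the whole table. On recovered reads edgeR called 14 members higher and 3 lower, and DESeq2 called 15 in all. The 12 higher peaks belong to Hdac4 (2), Hdac9 (2), Kmt2a (2), Dot1l, Ezh2, Kat2b, Kdm1a, Tet2 and Tet3, and the 3 lower peaks to Hdac4 (2) and Hdac7. Thus 8 genes had only higher called peaks, 1 had only a lower one, Hdac4 had both and 32 had none. With the mouse as a block, 19 member peaks were higher (12.5% of all peaks) and 11 lower (8.79% of all peaks). The median change of the members was -0.08, beside -0.04 over all peaks.

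How the table lists peaks bears on the weak ones. Each of the 45508 peaks had at least 3.19 rppm in every library of 1 population or more, and 4.2% of all peaks reached this level in D alone. Of the 164 members, 9 did so, and 7 of these are among the 12 higher peaks: both of Hdac9, and those of Kdm1a, Ezh2, Kat2b, Tet2 and Hdac4 at 77.4 kb. A peak listed through D alone has at least 1 library under this level in each of A, B and C, so its low values there and the direction of its change are in part fixed by the listing and are no finding. Another 4 members reached the level in A alone and none of them was called. The remaining 5 higher peaks (Hdac4 at 76.7 kb, 2 of Kmt2a, Tet3 and Dot1l) and the 3 lower ones reached it in at least 1 population besides D. Only 3 of the 12 higher peaks reached it in A. Hdac4 at 76.7 kb and Kmt2a at 12.4 kb did not, so the listing bears in part on their low A values too. Means of the 12 in A ran from 0.361 to 10.3 rppm (median 2.34) and in D from 4.56 to 15.8 rppm (median 6.73). The 3 lower peaks had means of 8 to 41 rppm in A. The libraries of A and D did not overlap at any of the 15 called peaks. Of all 164 peaks, 17.7% had every D library above both A libraries and 15.2% every D library below, against 19.3% and 18% of all peaks in the table.

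**Figure D2:**
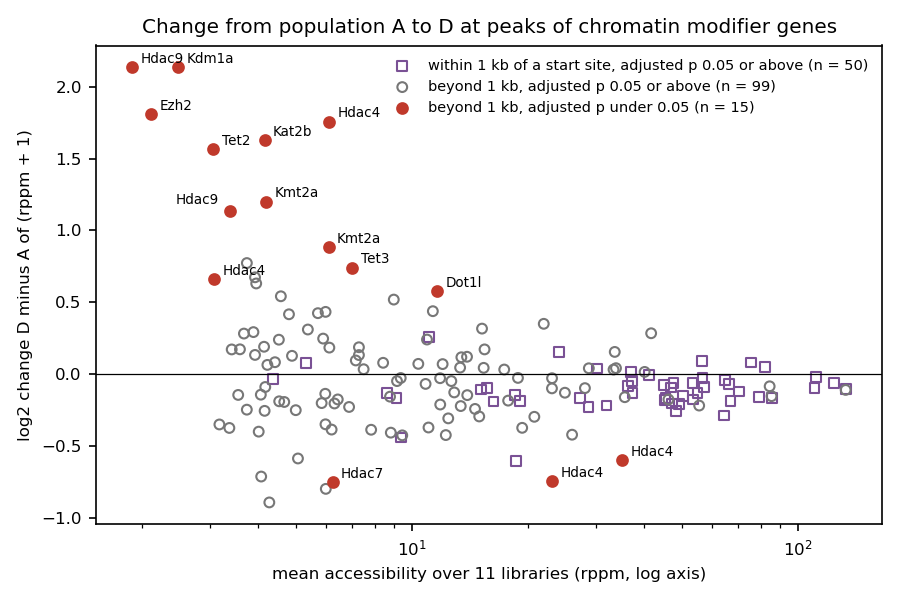
Each point is 1 of the 164 peaks, with its mean rppm over the 11 libraries on a log axis (x) and its log2 change of (rppm + 1) from A to D (y). Squares are the 50 promoter peaks, circles the peaks beyond 1 kb, and the 15 filled red points have a limma adjusted p under 0.05, 12 of them above 0 and 3 below.

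Among the genes of DNA methylation itself, no peak under their own names was called, beside 8.7% called higher and 3.74% lower over all peaks. At those shares a group this small would hold few calls. Dnmt1, Dnmt3a, Dnmt3b and Uhrf1 have 13 peaks under their names, with a median change of -0.05, and none was called by edgeR, by DESeq2 or with the block either. Dnmt3a, which sets new methylation, has 10 of them, with log2 changes from -0.30 to 0.43 and a lowest limma adjusted p of 0.142. A peak in a Dnmt3a intron that is assigned to Dnmt3aos was called higher in D and is described under the other observations. The Dnmt1 promoter had 65.8 ± 3.3 rppm in A (SD, n = 2) and 64.2 ± 6.56 in D (SD, n = 3), and the Uhrf1 promoter 48.2 ± 2.47 and 46.1 ± 3.29.

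The TET genes had 2 of 16 peaks higher in D (12.5%) and none lower, beside 8.7% and 3.74% of all peaks. With the block 3 were higher and 1 lower, beside 12.5% and 8.79% of all peaks. The Tet2 peak is intergenic, 19.3 kb upstream of the start (chromosome 3, 133563372 to 133564056). It had 1.41 and 1.51 rppm in A, 1.56, 1.6 and 1.56 in B, 2.16, 1.95 and 2.47 in C, and 8.47, 4.65 and 6.24 in D. Each C library lay above those of A and B, and each D library lay above all of them. This peak was listed through D alone, so its low values in A, B and C are in part fixed by the listing. The log2 change from A to D was 1.57 (SE 0.20), limma adjusted p = 0.000126, and within mice 1 and 3 it was 1.97 and 1.53. The Tet3 peak lies in intron 3 of 11 (chromosome 6, 83421495 to 83422237). It had 5.22 and 4.83 rppm in A, 7.8, 4.69 and 5.47 in B, 6.67, 7.3 and 7.38 in C, and 10.8, 6.84 and 10.1 in D. D was above A in all libraries but overlapped C, and the change of 0.74 (SE 0.21) had a limma adjusted p of 0.0338. Leaving out either A library, D of mouse 1 or D of mouse 3 raised that p to between 0.0702 and 0.212. Tet1, with 5 peaks, had none called and log2 changes from -0.60 to -0.03.

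Polycomb complex 2, which methylates H3K27, had 1 of 9 peaks higher (11.1%), beside 8.7% of all peaks. With the block 2 were lower as well (Suz12 and Ezh1), beside 8.79% of all peaks. The higher peak lies between genes, 26.2 kb upstream of Ezh2, the catalytic subunit used in dividing cells (chromosome 6, 47621013 to 47621497). It had 0.87 and 0.705 rppm in A, 0.668, 0.458 and 0.439 in B, 1.37, 1.23 and 1.08 in C, and 7.32, 3.64 and 5.37 in D. It was near the floor in A and B, with 8 and 7 reads in the A libraries, and rose 6.91-fold from A to D (change of 1.81, SE 0.22, limma adjusted p = 6.81e-05). Within mice 1 and 3 the change was 2.15 and 1.90. This peak was listed through D alone, which in part fixes its rise. The Ezh2 promoter itself had 82.9 ± 4.05 rppm in A and 74.5 ± 7.93 in D (limma adjusted p = 0.435). The promoters of Eed, Suz12 and Ezh1 were not called.

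Polycomb complex 1, which ubiquitinates H2A, had 0 of 14 peaks called between D and A by limma, edgeR or DESeq2. Its members here are Bmi1, Ring1, Rnf2 and Kdm2b, the last of which binds unmethylated CpG and brings the complex to it. With the block 1 of the 14, a Kdm2b peak, was higher (7.14%), beside 12.5% of all peaks. The H3K27 demethylase genes Kdm6a and Kdm6b had 0 of 13 peaks called by the same 3 tools. Kdm6b has 8 peaks, all beyond 1 kb of a start, with log2 changes from -0.59 to 0.13. The H3K9 methyltransferase genes Suv39h1, Suv39h2, Setdb1, Ehmt1 and Ehmt2 had 0 of 7 called, with a median change of -0.15. Over all peaks limma called 8.7% higher and 3.74% lower, so groups this small would hold few calls at those shares.

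The H3K4 and H3K79 methyltransferase genes had 3 of 18 peaks higher (16.7%) and none lower, beside 8.7% and 3.74% of all peaks. With the block 4 were higher and 1 lower, beside 12.5% and 8.79% of all peaks. Both Kmt2a (MLL1) peaks lie in intron 1 of 35, where RefSeq also places the gene Gm39326. The first (chromosome 9, 44868588 to 44869197) is 12.4 kb from the start. It had 2.07 and 2.92 rppm in A, 2.45, 2.98 and 2.67 in B, 3.53, 4.11 and 4.37 in C, and 7.32, 6.11 and 7.57 in D. Here C already lay above A and B, and D above C, with a change from A to D of 1.20 (SE 0.18, limma adjusted p = 0.000364). This peak did not reach the listing level in A or B. The second Kmt2a peak (chromosome 9, 44873616 to 44874151) had 5.44 and 3.83 rppm in A and 10.4, 7.56 and 10.2 in D, a change of 0.88 (SE 0.21, limma adjusted p = 0.0112). Its B and C libraries ran from 3.91 to 5.95 rppm, around those of A, and without A of mouse 3 the limma adjusted p was 0.179. The Dot1l peak, 3.64 kb upstream (chromosome 10, 80751240 to 80751893), had 11.1 and 9.46 rppm in A and 15, 15.6 and 16.8 in D, a change of 0.58 (SE 0.15, limma adjusted p = 0.0249). This call was lost without A of mouse 1, A of mouse 3 or D of mouse 3 (limma adjusted p = 0.0682, 0.247 and 0.0778). Kmt2d had none called, and Kmt2c had none without the block and 1 lower with it.

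The deacetylase genes hold 35 of the 164 peaks, the most of any group here. Of these 4 were higher (11.4%) and 3 lower (8.57%), beside 8.7% and 3.74% of all peaks. All 7 belong to the class IIa genes Hdac4, Hdac7 and Hdac9, which hold most of the 35 peaks (18, 9 and 2). Hdac1, Hdac2 and Sirt1 have only 3, 1 and 2 peaks, so their lack of calls says little. With the block 7 of the 35 were higher (20%) and 5 lower (14.3%), beside 12.5% and 8.79% of all peaks. Hdac9 has 2 peaks, both higher. Both were listed through D alone, so their direction and their low values in A, B and C are in part fixed by the listing. The first lies in intron 2 of 27 (chromosome 12, 34906629 to 34907801), 9.88 kb from the start. It had 0.218 and 0.503 rppm in A, 1.45, 0.458 and 0.798 in B, 0.785, 0.514 and 0.794 in C, and 3.47, 5.96 and 5.75 in D. All D libraries stood above all others. The A values rest on 2 and 5 reads, so the 14-fold ratio of means is imprecise, and the change was 2.13 (SE 0.24, limma adjusted p = 4.79e-05). The second lies in intron 18 of 27 (chromosome 12, 34248547 to 34249607), 279.8 kb from the start. It had 1.63 and 2.32 rppm in A, 2.78, 2.18 and 2.27 in B, 3.14, 2.88 and 3.18 in C, and 6.93, 4.07 and 5.81 in D, a change of 1.14 (SE 0.20, limma adjusted p = 0.00171). Every peak listed for Hdac9 was thus far from its starts, where the printed stretches hold few CpG.

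Hdac4 has 18 peaks, more than any other member, and moved in both directions within 1 intron. In intron 2 of 26, the peak 76.7 kb from the start (chromosome 1, 92103365 to 92103922) had 2.94 and 2.62 rppm in A, 5.79, 4.58 and 3.31 in B, 4.12, 3.39 and 4.65 in C, and 14.3, 10.6 and 10.7 in D. D was the highest group by a wide margin, with a change of 1.76 (SE 0.21, limma adjusted p = 6.78e-05). This peak did not reach the listing level in A. Its neighbour at 77.4 kb (chromosome 1, 92102754 to 92103214) had 2.83 and 2.22 rppm in A and 4.62, 4.8 and 4.26 in D, a change of 0.66 (SE 0.17, limma adjusted p = 0.0164). The neighbour was listed through D alone, which in part fixes its rise. DESeq2 did not call this neighbour (adjusted p = 0.103), nor did limma without A of mouse 3 (adjusted p = 0.202).

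The 2 lower Hdac4 peaks are in the same intron. The peak 111 kb from the start (chromosome 1, 92069206 to 92070054) had 32 and 26.9 rppm in A, 24.1, 27.7 and 28 in B, 20.4, 19.3 and 24.3 in C, and 15.8, 16.6 and 19.1 in D, a change of -0.74 (SE 0.14, limma adjusted p = 0.0023). The group means were lower at each step from A to D, although no single step was called. Without A of mouse 1 the limma adjusted p was 0.0571. The peak at 49.9 kb (chromosome 1, 92129992 to 92130950) had 42.4 and 39.6 rppm in A, 39.6, 36.9 and 37.8 in B, 41.4, 33.2 and 32.3 in C, and 21.6, 29.7 and 30 in D. Its change was -0.59 (SE 0.15, limma adjusted p = 0.0164), and it was -0.94 within mouse 1 and -0.39 within mouse 3. Without A of mouse 1 or of mouse 3 the limma adjusted p was 0.151 and 0.0827. The other 14 Hdac4 peaks were not called, the promoter among them, although with the block 2 of the 14 were higher. The plot along the gene shows the 4 called peaks among these 14.

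Hdac7 encodes a class IIa deacetylase that represses Nr4a1 in thymocytes until receptor signalling moves it out of the nucleus. Of its 9 peaks, 1 in intron 1 of 21 (chromosome 15, 97839488 to 97839817) was lower in D. RefSeq also places Gm33636 there. It had 7.94 and 8.05 rppm in A, 6.79, 7.21 and 6.9 in B, 6.28, 6.07 and 5.99 in C, and 3.85, 3.93 and 5.43 in D. The 4 groups did not overlap and their means were successively lower, with no single step called. From A to D the change was -0.75 (SE 0.16, limma adjusted p = 0.00646). Without A of mouse 1 or of mouse 3 the limma adjusted p was 0.0573 and 0.0664. Hdac1, Hdac2 and Sirt1 had no called peak.

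**Figure D3:**
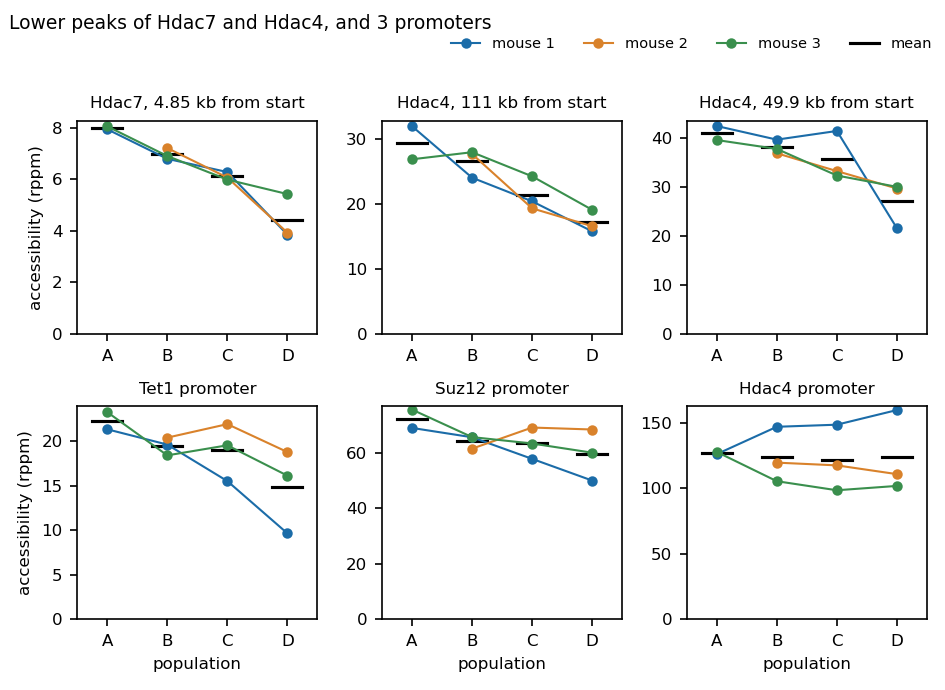
Accessibility in rppm (y axis) in populations A to D (x axis), with points joined by mouse and black bars at the group mean, for the 3 lower peaks (top row) and the promoters of Tet1, Suz12 and Hdac4 (bottom row). The Hdac7 peak falls from about 8 to 4.4 rppm in the mean, while the Hdac4 promoter spreads by mouse around a level mean.

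Beside 8.7% of all peaks, 1 of 20 peaks (5%) of the 5 acetyltransferase genes was higher. It belongs to Kat2b (PCAF) and lies 6.23 kb upstream of the nearest annotated start, within intron 1 of 16 of a transcript that starts farther upstream (chromosome 17, 53577593 to 53578193). It had 1.96 and 2.42 rppm in A, 2.34, 3.21 and 2.12 in B, 1.77, 2.47 and 2.81 in C, and 8.09, 9.02 and 9.47 in D. A, B and C overlapped and the 3 D libraries stood together above them, with a 4.05-fold ratio of means and a change of 1.63 (SE 0.19, limma adjusted p = 6.35e-05). The change was 1.62 within both mouse 1 and mouse 3. This peak was listed through D alone, which in part fixes its low values in A, B and C. Another Kat2b peak, 8.18 kb upstream, had 5.38 ± 0.372 rppm in A and 2.63 ± 1.42 in D. It was not called (limma adjusted p = 0.0559) but was with the block (0.00461), and it was picked out after its values were seen. Ep300, Crebbp, Kat2a and Kat6a had none called.

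**Figure D4:**
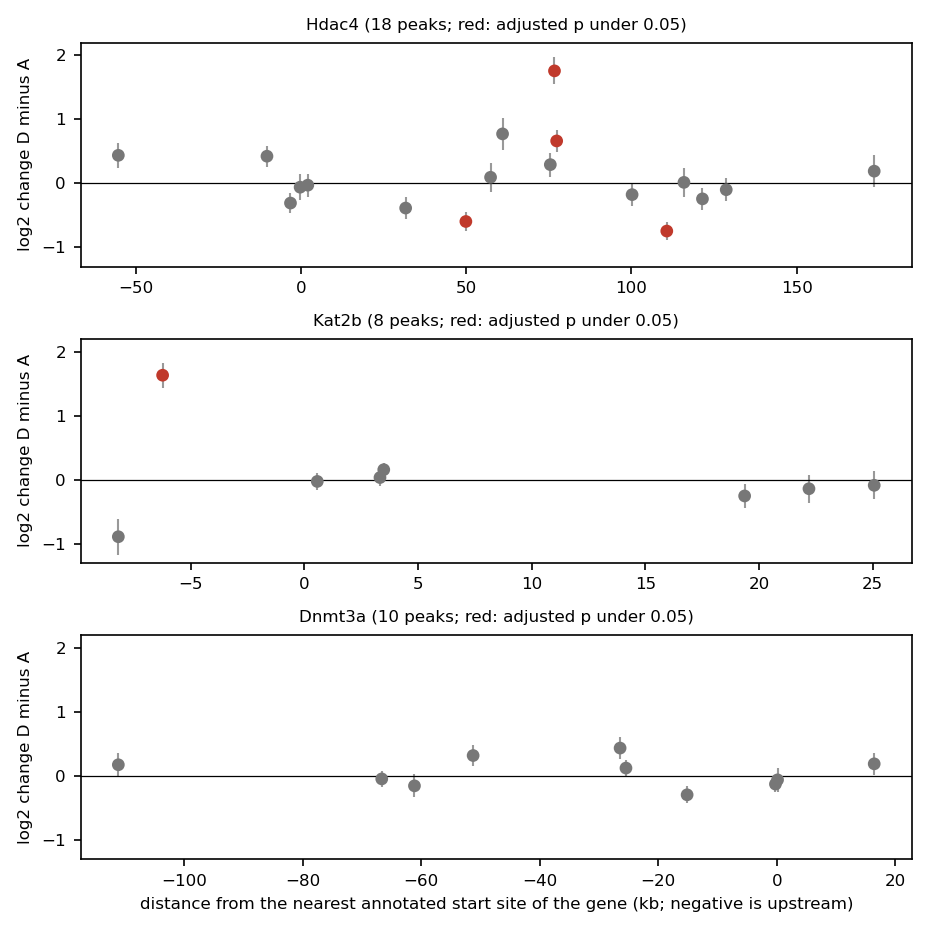
Log2 change of (rppm + 1) from A to D with its SE (y axis) against the distance in kb from the nearest annotated start site (x axis) at the peaks of Hdac4 (18), Kat2b (8) and Dnmt3a (10). Red marks a limma adjusted p under 0.05: 4 peaks of Hdac4, of which 2 are above and 2 below 0, 1 of Kat2b and none of Dnmt3a.

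Of the other demethylase genes, Kdm1a (LSD1, which removes methyl groups from H3K4) had 1 of its 2 peaks higher. It lies in intron 7 of 19, 32.4 kb from the start (chromosome 4, 136569946 to 136570615). It had 0.87 and 0.403 rppm in A, 0.78, 0.916 and 0.519 in B, 1.96, 1.03 and 1.73 in C, and 7.32, 3.93 and 7.79 in D. C lay above A and B, and D above C in every mouse, with a change from A to D of 2.13 (SE 0.26, limma adjusted p = 7.65e-05). The A libraries hold 8 and 4 reads there, and the listing through D alone in part fixes the low values outside D. Its promoter had 50.1 ± 9.68 rppm in A and 44.6 ± 10.1 in D. The remodeller genes Smarca4, Arid1a and Chd4 had 0 of 16 peaks called by limma, edgeR or DESeq2. Over all peaks limma called 8.7% higher and 3.74% lower. With the block 1 Chd4 peak was higher and 1 Smarca4 peak lower (6.25% each), beside 12.5% and 8.79% of all peaks. Arid1a has 9 peaks, with changes from -0.18 to 0.28.

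**Figure D5:**
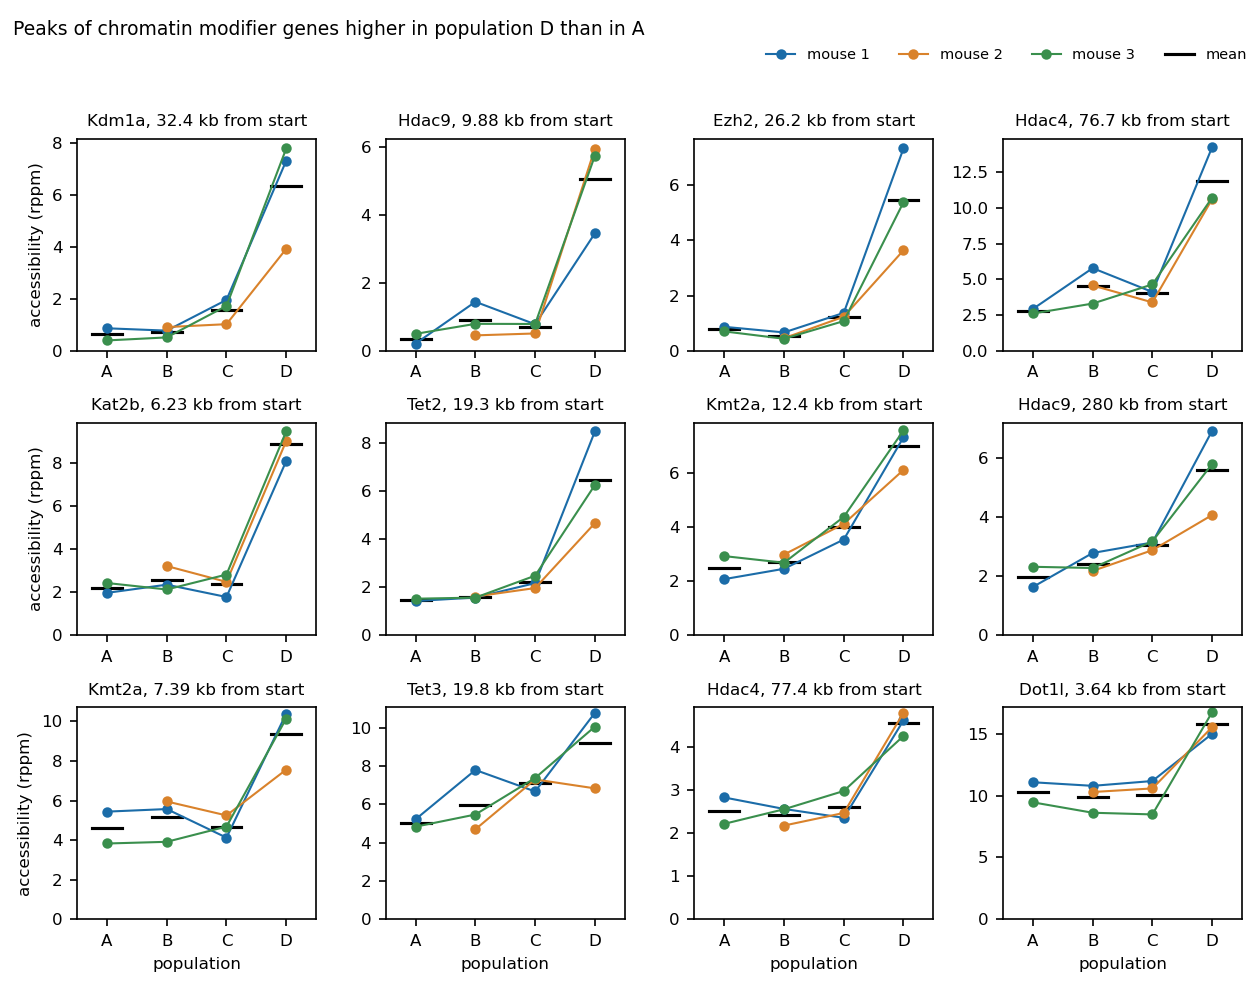
Accessibility in rppm (y axis) in populations A to D (x axis) at the 12 peaks higher in D than in A, with points joined by mouse and black bars at the group mean. In most panels A, B and C lie close together and D stands above them, and at the Tet3 peak D overlaps C. For the 7 peaks listed through D alone this pattern is in part fixed by the listing.

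Among neighbouring populations, all member peaks called by limma fell on the step from C to D. Between B and A, which differ in reporter level among Ly6C+ cells, limma called 0 of 164 member peaks and 0% of all peaks, with 2 members at an unadjusted p under 0.05, and edgeR and DESeq2 called 0 members. Between C and B, which differ in Ly6C at intermediate reporter, limma called 0 members and 0.0022% of all peaks higher, with 6 members at an unadjusted p under 0.05, and edgeR and DESeq2 called 0 members. Between D and C, which differ in reporter level among Ly6C- cells, 13 member peaks were higher (7.93%) and 0 lower, where over all peaks 4.51% were higher and 1.49% lower. In this step 27 members had an unadjusted p under 0.05, edgeR called 14 higher and 0 lower, and DESeq2 called 11. With the mouse as a block the members counted 14 higher and 6 lower, beside 6.82% and 4.53% of all peaks. Among peaks beyond 1 kb, 11.4% of the members were higher against 5.83% of all. Of all members, 5.49% were listed through D alone, beside 4.2% of all peaks. Among members beyond 1 kb it was 7.89%, and the like share of all peaks beyond 1 kb was not computed. The members listed through D alone include the called peaks of Hdac9, Kdm1a, Ezh2, Kat2b and Tet2, and that of Hdac4 at 77.4 kb. The larger shares of the members in this step are thus in part fixed by the listing and are no finding.

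D against C and D against A share the D libraries, so they are not independent. Their values stand side by side here. Of the 12 peaks higher than in A, 11 were also called higher than in C, all but Tet3. The largest of these changes from C to D were 1.81 at Hdac9 in intron 2 (limma adjusted p = 0.000201), 1.57 at Kat2b (0.000105), 1.49 at Ezh2 (0.00035) and 1.48 at Kdm1a (0.00143). These Hdac9, Kat2b, Ezh2 and Kdm1a peaks were listed through D alone. Their low values in C and the direction of their change are thus in part fixed by the listing. Also listed through D alone, the Hdac9 peak in intron 18 had the weakest of the 11 calls, a change of 0.68 with a limma adjusted p of 0.0428. Its change was 0.94, 0.39 and 0.70 in mice 1, 2 and 3, and the call was lost in 15 of 21 alternatives.

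A pair of peaks was called between D and C but not between D and A. At Dot1l, 8.39 kb into the gene in intron 1 of 27 (chromosome 10, 80763225 to 80763953), the libraries had 3.37 and 3.32 rppm in A, 2.75, 2.37 and 3.38 in C, and 6.55, 4.07 and 6.97 in D. The change was 0.82 from C (limma adjusted p = 0.0161) and 0.63 from A (0.0626). At Kdm2b, in intron 6 of 22 (chromosome 5, 122948998 to 122949613), where RefSeq also places Gm33118, they had 19.8 and 20.4 rppm in A, 19.4, 17 and 20.1 in C, and 28.1, 24.3 and 25.5 in D. The change was 0.44 from C (limma adjusted p = 0.0244) and 0.35 from A (0.0772). D lay above both other groups at both peaks, so the missing calls against A do not show that D and A were alike there.

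Whether the step from C to D exceeded the step from A to B was tested directly. By limma 2 member peaks passed, Ezh2 at 26.2 kb and Kat2b at 6.23 kb, both with the larger rise in the upper step, while 0.609% of all peaks passed in that direction. None of the members passed in the other direction, as did 0.022% of all peaks. At Ezh2 the upper step was 1.49 and the lower -0.23, a difference of 1.73 (SE 0.29, limma adjusted p = 0.0138). At Kat2b the steps were 1.57 and 0.15, a difference of 1.42 (SE 0.26, limma adjusted p = 0.0246). Both peaks are listed through D alone, which in part fixes this pattern. At the other called peaks the difference did not pass, and it is not shown that their steps differ. edgeR called neither (adjusted p = 0.0831 for both), and limma called neither without A of mouse 1, A of mouse 3 or B of mouse 3.

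The 3 genes without a named peak are not without open chromatin at their ends, since a peak is assigned to a single gene. These peaks were looked up after the table had been examined. A peak assigned to Rell2 spans an end of Hdac3, with 50.5 ± 3.97 rppm in A and 49.7 ± 2.39 in D (limma adjusted p = 0.946). A peak assigned to Ccdc77 spans an end of Kdm5a, with 84 ± 2.97 and 84.2 ± 7.86 rppm (0.998). A peak assigned to Mir8101 spans an end of Hdac5, with 51.2 ± 6.67 and 48.2 ± 7.17 rppm (limma adjusted p = 0.789). They are absent from the counts above by the rule, not by lack of signal.

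A list of 100 other chromatin genes, chosen by complex, gives the surroundings. Of these, 94 have a peak, 412 peaks in all, and between D and A limma called 25 higher (6.07%) and 24 lower (5.83%), beside 8.7% and 3.74% of all peaks. Calls fell on 23 of these genes. The largest changes were at Rybp, a Polycomb complex 1 partner (2.09), Smarca2, the alternative SWI/SNF motor (1.89), Jarid2, a Polycomb complex 2 partner (1.58), a second Rybp peak (1.51) and Kmt2e, lower by a change of -1.44. With the block 31 were higher (7.52%) and 50 lower (12.1%), beside 12.5% and 8.79% of all peaks.

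Some markers of other cells differed between A and D, and their part in the results above was not tested. Over all peaks limma called 8.7% higher and 3.74% lower, the shares to set beside the counts that follow. Regulatory T cell markers, all 8 with a peak, summed to 558 to 569 rppm in A and 695 to 707 in D. By limma 15 of their 51 peaks were higher (29.4%) and 3 lower (5.88%). These calls fell on 4 of the 8 genes, and the Foxp3 peak itself was not called. Memory and effector markers (7 of 8 with a peak) summed to 660 to 696 and 722 to 801 rppm, with 15 of 57 peaks higher (26.3%) and 1 lower (1.75%). Myeloid and dendritic markers (6 of 8) summed to 141 to 145 and 99 to 127 rppm, with 1 of 19 higher (5.26%) and 3 lower (15.8%). Csf1r and Lyz2 have no listed peak. The sums of the other lists overlapped between A and D. B cell markers (3 of 8) summed to 45.1 to 51.4 and 35.8 to 53.1 rppm, with 0 of 6 peaks called by limma, edgeR or DESeq2 and 1 at an unadjusted p under 0.05, and Ms4a1 and Pax5 are among those with no listed peak. CD8 T and NK markers (7 of 8) summed to 561 to 580 and 512 to 597 rppm, with 3 of 27 higher and 3 lower (11.1% each). CD4 T markers (7 of 8) summed to 582 to 591 and 575 to 629 rppm, with 3 of 32 higher (9.38%) and 2 lower (6.25%).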

How the data were processed

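The deposited values are RPM (called rppm per the file headers) for 45508 peaks in 11 libraries. The submitters' processing notes name Bowtie, MACS2 and mm10, and the roles, read filters, peak merging and the denominator are not given in the sources used here. Whole reads were recovered in all libraries (100% of values within 0.0015 rppm of a whole multiple). 1 read is worth 0.385 rppm in the shallowest library and 0.0271 in the deepest, which sets the precision at weak peaks.

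limma 3.58.1 in R 4.3.3 was fitted to log2(rppm + 1) over the 11 libraries, with the population as the only term and a variance trend. Tests were two-sided and adjusted by Benjamini-Hochberg over all peaks within each of 5 contrasts, with a threshold of 0.05. edgeR 4.0.16 and DESeq2 1.42.0 were run on the recovered reads as alternatives (edgeR called 4716 peaks higher and 1712 lower in D than in A), with other pseudocounts, filters, scalings, the mouse as a block and libraries left out. The fit was tested on simulated data. Replicate numbers are mice, per the labels. Deviations from the population means correlated at 0.18 to 0.56 in 15 same-mouse pairs and at -0.43 to 0.20 in 30 others. Such deviations cancel out within each population, so the pairs are not independent and the lower values of the others are in part arithmetic.

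Named peaks were up to 12 higher and 12 lower called in D against A, at most 2 per gene and with a mean of 1 rppm or more in the higher group, and up to 4 per direction in each neighbouring step. Promoter peaks, genes without a peak and the 5 genes with most peaks were added. The members and lists were chosen with earlier results of these data known. Motifs were searched only in RefSeq promoter windows, since no genome was used here.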

Additional observations from a re-analysis of the deposited data

Results flagged for a closer look

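At 2 peaks the step from C to D differed from the step from A to B by a direct test. At the Ezh2 peak 26.2 kb upstream of the start the difference was 1.73 on the log2 scale (limma adjusted p = 0.0138). It was called in DESeq2 (adjusted p = 0.031) but not in edgeR (0.0831). At the Kat2b peak 6.23 kb upstream the difference was 1.42 (limma adjusted p = 0.0246), and neither DESeq2 (0.0522) nor edgeR (0.0831) called it. Both peaks reached the lowest level at which the table lists a peak (3.19 rppm in every library of a population) in D alone, so a rise in the upper step is in part fixed by the listing. Every D library lay above every library of A, B and C at both.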

How the results depend on the processing

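Counts depended on the settings as follows. Called peaks of the whole table between D and A (5658) became 3078 at a mean of at least 5 rppm, 9668 with the mouse as a block, 1024 without mouse 3, 3763 when the model held A and D alone, and 2930 to 6042 when 1 library was left out. Member peaks higher in D than in A (12) became 4 at 5 rppm, 19 with the block and 3 without mouse 3, and 8 to 13 with 1 library left out. Lower member peaks (3) became 5 with quantile normalization, 11 with the block, 0 without mouse 3 and 1 with only A and D. Leaving out 1 library gave 0 to 5: 0 without A of mouse 1, 1 without A of mouse 3 and 5 without D of mouse 3. A then has 1 library, assumed to vary like the others. From C to D, higher members (13) became 4 at 5 rppm, 3 without mouse 3 and 7 with only C and D, and 7 to 12 with 1 library left out, with 7 without D of mouse 3 and 8 without C of mouse 2. Lower members (0) became 1 with quantile normalization, 6 with the block and 0 to 1 with 1 library left out. The difference between steps (2) became 1 with a pseudocount of 0.25 and in DESeq2, 0 at 5 rppm, in edgeR and without mouse 3, and 4 with quantile normalization. It ran from 0 to 3 with 1 library left out, with 0 without A of mouse 1, A of mouse 3 or B of mouse 3. The 5 rppm filter removes weak peaks from the test and leaving out mice removes libraries; for the other settings the cause was not tested. The block lost no call among the named peaks.

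Of 30 named results, 6 kept their call under every alternative run: the Hdac4 peak at 76.7 kb, the Hdac9 peak in intron 2 and the Kat2b peak at 6.23 kb, each against A and against C. The Hdac9 and Kat2b peaks were too weak for the 5 rppm filter and were not tested under it. Both were also listed through D alone, and the Hdac4 peak did not reach the listing level in A. Every alternative ran on the same list of peaks, so the kept calls do not remove these limits. The other 24 lost it under at least 1, and 0 reversed. B against A and C against B gave 0 called members throughout. The 15 called peaks are mostly weak, so depth limits them most in D of mouse 1.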

Other observations

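Peaks that overlap a member gene but carry another gene's name are outside the counts of the report. A search made after the data had been examined found 44 of them at 19 members, 39 inside the gene and 5 across an end, of which 3 are given in the report. By limma 4 were higher (9.09%) and 4 lower (9.09%), beside 8.7% and 3.74% of all peaks. The other 36 were not called, and only the 8 called ones are described here. In an intron of Dnmt3a, whose own named peaks were not called, a peak assigned to Dnmt3aos (chromosome 12, 3835576 to 3835998) had 2.95 ± 1.24 rppm in A and 9.38 ± 2.56 in D, a log2 change of 1.41 (limma adjusted p = 0.00111). In intron 3 of Tet3, a peak assigned to Mir6374 (chromosome 6, 83414962 to 83415856) had 14.4 ± 0.198 and 28.4 ± 5.68 rppm, a change of 0.91 (limma adjusted p = 0.00194). In Hdac4, an exonic peak assigned to Twist2 had 2.02 ± 0.851 and 5.83 ± 1.9 rppm, a change of 1.17 (limma adjusted p = 0.00467). In Dot1l, a peak assigned to Plekhj1 rose by 0.75 (limma adjusted p = 0.0148).

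In Ezh1, the Polycomb methyltransferase of resting cells, 2 intronic peaks assigned to Cntnap1 were lower in D. The first (chromosome 11, 101195955 to 101196797) had 11.7 ± 1.65 rppm in A and 3.63 ± 0.824 in D, a change of -1.47 (limma adjusted p = 5.17e-05). The second had 12.3 ± 1.04 and 7.42 ± 1.27 rppm, a change of -0.67 (limma adjusted p = 0.0233). In Kat2b, a peak assigned to Sgo1 fell from 8.24 ± 0.585 to 4.15 ± 0.451 rppm, a change of -0.85 (limma adjusted p = 0.00457). In Arid1a, 1 assigned to Mir7227 changed by -0.43 (limma adjusted p = 0.0248). Which gene any of these peaks acts on was not tested.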
